A study of Homo sapiens with 12 samples.

Results

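ESR1, PGR, MED1, NCOA2 and CARM1 encode a pair of steroid receptors and 3 of the co-activators through which such receptors act. They were chosen by name, and each was represented by its brightest probe set, by the mean of the 12 arrays. All 5 were found, among 14884 genes with a named probe set, and each had 1 named probe set. Expression was measured in Ishikawa cells, a human endometrial adenocarcinoma line, in 4 groups of 3 arrays: control ERα(-), shMOF ERα(-), control ERα(+) and shMOF ERα(+). The short hairpin named shMOF is directed at MOF, the histone acetyltransferase encoded by KAT8. The sources used here do not say how ERα(-) and ERα(+) cells were made, whether the control cells held a hairpin or vector, or whether replicates were separate cultures. The p-values therefore measure only how far these arrays spread, and that spread may be technical. The series' title concerns a feedback between MOF and the oestrogen receptor ERα, and the comparisons address how the genes of the receptor and its co-activators differ with each label.

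Steroid receptors are transcription factors that bind their hormone, dimerise and attach to response elements in DNA. ERα, the product of ESR1, responds to oestradiol, drives growth of the endometrial epithelium and induces PGR, whose product, the progesterone receptor, counteracts that growth. On DNA, hormone-bound receptors recruit NCOA2 (a p160 co-activator, also named GRIP1 or TIF2), which docks CARM1, an arginine methyltransferase that modifies histone H3. MED1 is the subunit through which nuclear receptors contact Mediator, the complex that bridges bound factors to RNA polymerase II.

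The promoter windows of the receptors and of the co-activators that ran in opposite directions below, MED1 and CARM1, are shown to give the sequence context of the genes. Each is the 250 bases before the outermost annotated start, from RefSeq on GRCh38.p14, written 5′ to 3′ on the gene's strand. Capitals mark the GC box (GGGCGG or its complement CCGCCC) and the half-site bound by oestrogen receptors (GGTCA or its complement TGACC). No window of NCOA2 was used here.
ESR1, chr6:151656422-151656671, plus strand: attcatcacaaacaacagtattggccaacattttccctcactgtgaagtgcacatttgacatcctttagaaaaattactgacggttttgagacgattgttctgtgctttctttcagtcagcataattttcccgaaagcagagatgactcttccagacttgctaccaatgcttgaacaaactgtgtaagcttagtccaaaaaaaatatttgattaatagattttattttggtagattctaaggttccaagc
PGR, chr11:101129814-101130063, minus strand: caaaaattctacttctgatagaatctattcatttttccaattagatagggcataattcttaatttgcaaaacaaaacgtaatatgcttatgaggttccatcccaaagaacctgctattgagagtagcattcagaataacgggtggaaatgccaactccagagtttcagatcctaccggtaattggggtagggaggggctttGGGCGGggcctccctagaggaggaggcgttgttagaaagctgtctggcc
MED1, chr17:39451264-39451513, minus strand: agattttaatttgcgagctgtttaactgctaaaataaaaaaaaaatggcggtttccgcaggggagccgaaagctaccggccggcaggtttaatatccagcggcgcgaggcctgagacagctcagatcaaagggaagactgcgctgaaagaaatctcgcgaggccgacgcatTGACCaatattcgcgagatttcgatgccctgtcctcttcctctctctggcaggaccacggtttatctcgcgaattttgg
CARM1, chr19:10871303-10871552, plus strand: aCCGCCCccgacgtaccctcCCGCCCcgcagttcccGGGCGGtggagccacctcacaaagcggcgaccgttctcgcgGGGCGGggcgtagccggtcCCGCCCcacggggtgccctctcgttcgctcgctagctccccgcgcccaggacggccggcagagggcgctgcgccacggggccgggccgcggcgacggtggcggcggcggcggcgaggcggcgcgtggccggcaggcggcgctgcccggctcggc

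The CARM1 window held 81.6% G and C and 5 GC boxes, whereas the MED1 window held 50.4% and 0 GC boxes, against a median of 58% over 35116 windows. The windows of PGR and ESR1 held 43.6% and 36%, with 1 and 0 GC boxes. A GC box occurred in 42.6% of all windows on either strand. Among these 4 windows the half-site occurred only in that of MED1, once, and it occurs in 32.6% of all windows. The full oestrogen response element, which joins the half-site to its complement across 3 bases of any kind, occurred in 0 of the 4 and in 0.0399% of all windows. ESR1 had 6 annotated windows, whose content of G and C ran from 36% to 60.8%. PGR had 3, from 43.6% to 64.4%, CARM1 2, from 70% to 81.6%, and MED1 1. The window shown was thus the lowest in G and C for ESR1 and PGR and the highest for CARM1. Which start the Ishikawa cells use was not measured.

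KAT8, the hairpin's target, showed no lower signal with the hairpin label. On the log2 scale the ERα(-) means were 6.77 ± 0.10 (SD, n = 3) for control and 6.75 ± 0.03 for shMOF, and the ERα(+) means were 6.74 ± 0.12 and 6.78 ± 0.21. Each direction given for shMOF therefore compares libraries labelled shMOF with libraries labelled control. The signal of ESR1 does not bear out the ERα labels either, since it lay in the dim range in all 4 groups and its ERα(+) and ERα(-) arrays overlapped among the controls, so directions for ERα are also between labelled libraries. For the epithelial origin of the cells 10 of 12 listed markers were measured, without CDH1 and MUC1. Their mean lay between 8.10 and 8.70 on every array. The brightest were EPCAM at 11.5, PAX8 at 10.7 and KRT18 at 9.99 (mean log2 signal over the 12 arrays). KRT8 at 6.49, CLDN4 at 6.46 and FOXA2 at 6.21 lay near the upper end of the dim range given below. They were above that of the same array on 9, 10 and 7 of 12 arrays. The mean over 5 stromal markers lay between 3.52 and 3.76, with DCN at 2.06 and LUM at 2.20, and that over 3 endothelial markers between 4.00 and 4.44. The mean over 3 immune markers lay between 4.41 and 4.98, of which CD14 was at 3.30, LYZ at 3.57 and CD68 at 7.03. CD68 was the 1 of these 3 with an unadjusted p below 0.05, at 0.73 ± 0.27 (SE) for ERα in control arrays and -0.58 ± 0.27 for shMOF in ERα(+), and of the 10 epithelial markers 3 were higher for the former, beside 12.7% of all genes, and 2 lower for the latter, beside 18.7%. The interaction is the shMOF minus control difference in ERα(+) minus that in ERα(-), so differences of opposite sign add up in it. There CD68 was at -1.10 ± 0.38, and 4 of the 10 epithelial markers were lower beside 18% of all genes. Of the epithelial markers 10 of 10 were below 0, with a median of -0.43. For shMOF in ERα(-) 1 of the 10 epithelial markers was higher at an unadjusted p below 0.05, EMX2 at 0.38 ± 0.14. So was 1 of the 3 endothelial markers, PECAM1 at 0.49 ± 0.22, beside 4.78% of all genes. PECAM1 was in the dim range at 4.34. The endothelial markers gave 0 in the other comparisons, and the stromal markers gave 0 in all 5. The part of these markers in the results on the co-activators was not tested. Pairs of arrays correlated over all genes (genes are no independent replicates) at a median r of 0.989 within groups and 0.988 between them.

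The receptors read within the arrays' dim range and the co-activators above it. To show what a probe set reads with little transcript, 85 KRTAP genes were used, which encode keratin-associated proteins of the hair shaft. Their mean log2 signal had a median of 3.66, with a 5th percentile of 1.76 and a 95th of 6.15, and 6.15 is taken below as the upper end of the dim range. On single arrays that 95th percentile lay between 5.87 and 6.29. ESR1 (probe set 17013809, chromosome 6, 151656672 to 152129619, GRCh38.p14) had a mean of 4.36 over the 12 arrays, at the 27.1st percentile of all tested genes, and 28 of the 85 KRTAP genes read as high or higher. PGR (probe set 16743577, chromosome 11, 101029624 to 101129813) had a mean of 3.20, at the 10.6th percentile, with 55 of the 85 KRTAP genes as high or higher. ESR1 was above the KRTAP median on 12 of 12 arrays and PGR on 0, and both were below the 95th percentile on all 12.

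The co-activators were above the dim range on 12 of 12 arrays. MED1 (probe set 16844155, chromosome 17, 39404285 to 39451263) had a mean of 9.12, at the 94.6th percentile of tested genes, and CARM1 (probe set 16858321, chromosome 19, 10871553 to 10923075) a mean of 8.97, at the 93.8th. NCOA2 (probe set 17078061, chromosome 8, 70109782 to 70456446) had a mean of 7.39, at the 77.1st percentile, and 1 of the 85 KRTAP genes read higher. Probe sets differ in how strongly they bind, so these positions do not rank the genes by transcript number, and a signal in the dim range does not show that a transcript is absent. RMA, the authors' summary method, can compress differences at such levels.

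**Figure D1:**
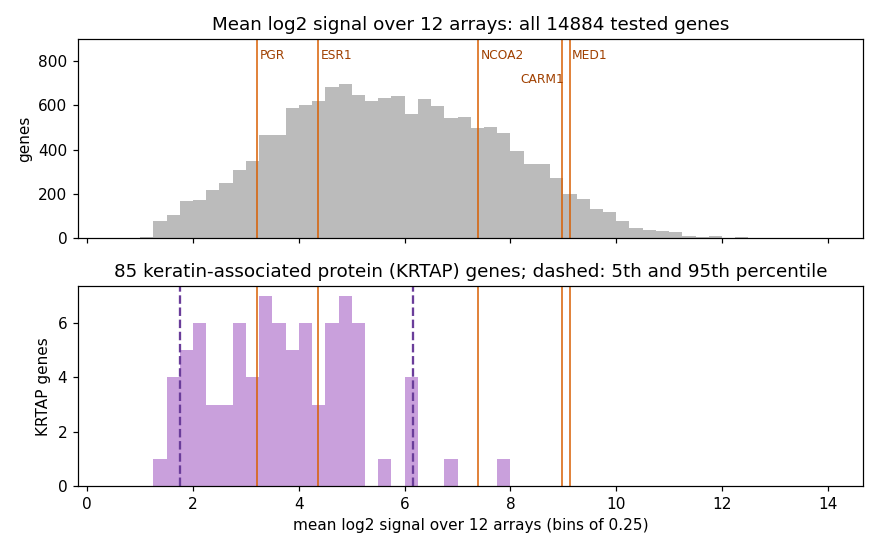
Histograms of the mean log2 signal over 12 arrays (horizontal axis, bins of 0.25) for all 14884 tested genes (upper) and for 85 KRTAP genes (lower), with vertical lines at the 5 genes and dashed lines at the 5th and 95th percentile of the KRTAP genes. PGR at 3.20 and ESR1 at 4.36 stand among the KRTAP genes, and NCOA2 at 7.39, CARM1 at 8.97 and MED1 at 9.12 stand to the right of the dashed line at 6.15.

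ESR1 read 4.43, 4.12 and 4.28 on the log2 scale on control ERα(-) replicates 1, 2 and 3. It read 4.52, 4.39 and 4.34 on shMOF ERα(-), 4.40, 4.65 and 4.32 on control ERα(+), and 4.28, 4.27 and 4.27 on shMOF ERα(+). The highest array was control ERα(+) replicate 2 and the lowest control ERα(-) replicate 2, so the control groups overlapped, while the shMOF ERα(+) arrays lay below all control ERα(+) and all shMOF ERα(-) arrays. The highest group mean was that of control ERα(+), 4.46 ± 0.17 (SD, n = 3), followed by shMOF ERα(-) with 4.42 ± 0.09, control ERα(-) with 4.28 ± 0.15 and shMOF ERα(+) with 4.27 ± 0.007. Between control arrays ERα(+) minus ERα(-) was 0.18 ± 0.12 (SE) on the log2 scale, and its 95% interval ran from -0.08 to 0.45, the upper bound being a 1.36-fold higher signal (limma adjusted p = 0.521). Between shMOF arrays it was -0.15 ± 0.12 (-0.41 to 0.12, adjusted p = 0.75). For shMOF minus control the values were 0.14 ± 0.12 in ERα(-) (-0.12 to 0.41, adjusted p = 0.953) and -0.19 ± 0.12 in ERα(+) (-0.45 to 0.08, adjusted p = 0.395). ESR1 was also among the least variable probe sets. Its SD over the 12 arrays was 0.14, at the 11.4th percentile of the 500 genes of nearest mean, whose median SD was 0.20.

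PGR, which oestrogen induces in the endometrium, read 3.58, 3.19 and 3.63 on control ERα(-), 3.31, 3.05 and 3.10 on shMOF ERα(-), 3.36, 3.21 and 2.94 on control ERα(+), and 2.71, 3.31 and 3.04 on shMOF ERα(+). The highest pair of arrays was control ERα(-) replicates 3 and 1, and every pair of groups overlapped. Means were 3.47 ± 0.24 (SD, n = 3) in control ERα(-), 3.17 ± 0.21 in control ERα(+), 3.15 ± 0.14 in shMOF ERα(-) and 3.02 ± 0.30 in shMOF ERα(+), in falling order. ERα(+) minus ERα(-) was -0.30 ± 0.17 (SE) in control arrays (95% interval -0.67 to 0.08, limma adjusted p = 0.466) and -0.13 ± 0.17 in shMOF arrays (-0.51 to 0.24, adjusted p = 0.815). shMOF minus control was -0.31 ± 0.17 in ERα(-) (-0.69 to 0.06, adjusted p = 0.953) and -0.15 ± 0.17 in ERα(+) (-0.52 to 0.22, adjusted p = 0.645). Without shMOF ERα(+) replicate 1, its lowest array, the latter was 0.002, and ERα(+) minus ERα(-) in shMOF arrays was 0.0185. The SD of PGR over the 12 arrays was 0.26, against a median of 0.24 for KRTAP genes.

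MED1, the receptor-facing subunit of Mediator, crossed over between the labels. It read 9.34, 9.24 and 9.37 on control ERα(-), 8.87, 9.25 and 8.89 on shMOF ERα(-), 8.93, 9.04 and 8.73 on control ERα(+), and 9.22, 9.32 and 9.22 on shMOF ERα(+). All control ERα(+) arrays lay below all control ERα(-) and all shMOF ERα(+) arrays, and in shMOF ERα(-) replicate 2 stood apart from the other two. The highest mean was that of control ERα(-), 9.32 ± 0.07 (SD, n = 3), then came 9.25 ± 0.06 in shMOF ERα(+), 9.002 ± 0.22 in shMOF ERα(-) and 8.90 ± 0.15 in control ERα(+), of which the upper pair overlapped and so did the lower. shMOF minus control was -0.32 ± 0.13 (SE) in ERα(-) (95% interval -0.60 to -0.04, limma adjusted p = 0.953) and 0.35 ± 0.13 in ERα(+) (0.07 to 0.63, adjusted p = 0.225), the latter a 1.28-fold higher signal. ERα(+) minus ERα(-) was -0.42 ± 0.13 in control arrays (-0.70 to -0.14, adjusted p = 0.333) and 0.25 ± 0.13 in shMOF arrays (-0.03 to 0.53, adjusted p = 0.746). The interaction was 0.67 ± 0.18 (0.27 to 1.06, adjusted p = 0.219).

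NCOA2, the p160 co-activator, had the same crossed order with a wider spread. The ERα(-) arrays read 7.55, 7.35 and 7.68 with the control label and 6.94, 7.63 and 7.14 with the shMOF label, and the ERα(+) arrays read 7.22, 7.37 and 6.90 and 7.55, 7.89 and 7.49. Here only control ERα(+) and shMOF ERα(+) did not overlap, and shMOF ERα(-) replicate 2 again stood well above the other two of its group. Means were 7.64 ± 0.22 (SD, n = 3) in shMOF ERα(+), 7.53 ± 0.16 in control ERα(-), 7.24 ± 0.36 in shMOF ERα(-) and 7.16 ± 0.24 in control ERα(+). shMOF minus control was -0.29 ± 0.19 (SE) in ERα(-) (95% interval -0.69 to 0.11, limma adjusted p = 0.953) and 0.48 ± 0.19 in ERα(+) (0.08 to 0.88, adjusted p = 0.229), a 1.396-fold higher signal. ERα(+) minus ERα(-) was -0.37 ± 0.19 in control arrays (-0.77 to 0.03, adjusted p = 0.414) and 0.41 ± 0.19 in shMOF arrays (0.007 to 0.81, adjusted p = 0.746), and the interaction was 0.77 ± 0.26 (0.21 to 1.34, adjusted p = 0.219). Without shMOF ERα(-) replicate 2 the interactions of MED1 and NCOA2 were 0.79 and 0.97 and both were called (limma adjusted p = 0.0325 and 0.0426). That refit called 570 of the 14884 genes in the interaction and gave 4036 an unadjusted p below 0.05. Of the refits without 1 array it gave the largest interaction for both genes.

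CARM1, the methyltransferase that NCOA2 docks, ran the opposite way. It read 8.53, 9.05 and 8.70 on control ERα(-), 9.23, 8.82 and 9.14 on shMOF ERα(-), 9.23, 9.06 and 9.31 on control ERα(+), and 8.93, 8.59 and 9.04 on shMOF ERα(+). The control ERα(+) arrays lay above all control ERα(-) and all shMOF ERα(+) arrays, narrowly so for control ERα(-) replicate 2. The highest mean was that of control ERα(+), 9.20 ± 0.13 (SD, n = 3), before 9.07 ± 0.21 in shMOF ERα(-), 8.85 ± 0.23 in shMOF ERα(+) and 8.76 ± 0.27 in control ERα(-), and neighbours in this order overlapped. shMOF minus control was 0.30 ± 0.17 (SE) in ERα(-) (95% interval -0.05 to 0.66, limma adjusted p = 0.953) and -0.35 ± 0.17 in ERα(+) (-0.71 to 0.006, adjusted p = 0.273). ERα(+) minus ERα(-) was 0.44 ± 0.17 in control arrays (0.08 to 0.80, adjusted p = 0.343), a 1.36-fold higher signal, and -0.21 ± 0.17 in shMOF arrays (-0.57 to 0.14, adjusted p = 0.748). The interaction was -0.66 ± 0.24 (-1.16 to -0.15, adjusted p = 0.223).

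**Figure D2:**
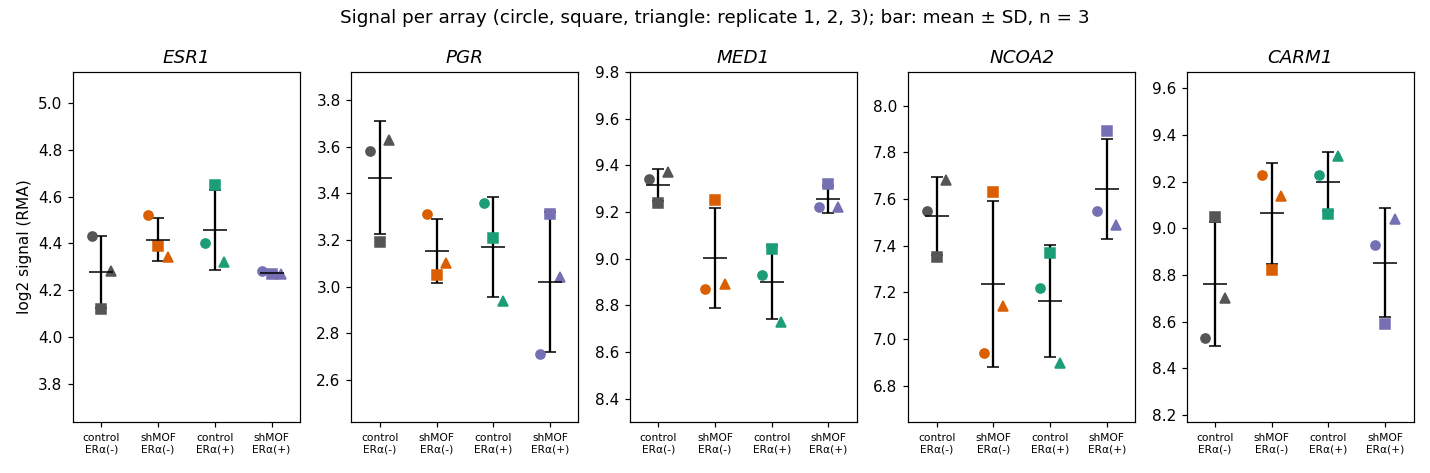
Log2 signal (vertical axis, a span of 1.5 for each gene) on the 12 arrays by labelled group, with replicates 1, 2 and 3 as circle, square and triangle and bars for the mean ± SD of 3 arrays. MED1 and NCOA2 are low in control ERα(+), with means of 8.90 and 7.16, where CARM1 is highest at 9.20, while ESR1 spans only 4.12 to 4.65 over all arrays.

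None of the 5 genes passed limma's test in any comparison after Benjamini-Hochberg adjustment over all genes, and neither did any other gene: 0% of the 14884 genes were called in each of the 5 comparisons. The members are therefore counted at an unadjusted p below 0.05 and by whether the 2 groups of 3 arrays overlapped, beside the share of all genes. For shMOF in ERα(-), MED1 alone of the 5 had such a p, against 4.78% of all genes (2.1% higher and 2.68% lower), and 0 of the 5 had groups apart against 8.76% (4.11% and 4.66%). For shMOF in ERα(+), MED1 and NCOA2 had such a p, against 18.7% (10.2% and 8.51%). Groups were apart there for MED1 and NCOA2, higher, and for ESR1 and CARM1, lower, so for 4 of the 5 against 26.2% of all genes (12.2% and 14.1%). For ERα in control arrays CARM1, higher, and MED1, lower, had such a p and groups apart, against 12.7% (6.34% and 6.38%) and 19.3% (10.3% and 8.92%). For ERα in shMOF arrays NCOA2 had such a p against 5.33% (2.52% and 2.81%), and ESR1 had groups apart against 9.51% (3.8% and 5.7%). In the interaction MED1 and NCOA2, higher, and CARM1, lower, had such a p, against 18% of all genes (9.35% and 8.69%). The comparisons share arrays pairwise, so their values are set side by side and are not independent. Array quality weights, which ran from 0.359 to 8.86, gave calls for MED1 in 4 of the 5 comparisons, for NCOA2 in 2 and for CARM1 in 1, in a fit that called up to 3258 genes.

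The 3 co-activators varied together, CARM1 in the opposite sense, along the main axis on which the 12 arrays differ. Over the 12 arrays MED1 and NCOA2 correlated at r = 0.923 (Spearman's rho 0.895, permutation p = 1e-05 and 0.00013, of which 1e-05 is the smallest that the permutations can give), and at 0.856 without the 2 arrays farthest from the median of MED1. CARM1 correlated with MED1 at -0.882 (rho -0.937, permutation p = 0.00021 and 5e-05) and with NCOA2 at -0.879 (rho -0.902, permutation p = 0.00021 and 0.00011), and without 2 arrays at -0.837 and -0.844. Over the 10 pairs of the 5 genes the adjusted p-values of these 3 pairs were 0.0001 for r of MED1 with NCOA2, 0.0007 for r of the other two and 0.000433 for each rho. The permutations took the 12 arrays as exchangeable across the 4 groups, although the arrays may not be separate cultures. A link between the 3 genes beyond the main axis of the arrays was not tested. The relation did not rest on the group means, since deviations from them correlated at 0.952, -0.763 and -0.845 in the same order. Other genes shared the relation to different extents: 0.726% of genes correlated with MED1 as strongly as NCOA2 did in either sign, 3.35% as strongly as CARM1 did, and 8.73% correlated with NCOA2 as strongly as CARM1 did. Such shares are larger among genes at or above the upper end of the dim range. There 26.1% reached 0.8 in either sign with MED1, 36.8% with NCOA2 and 20.85% with CARM1, against 12.6%, 17.7% and 9.79% of all other genes. For ESR1 and PGR, r was between -0.445 and 0.317 against the 3 co-activators and 0.186 against each other, and the smallest adjusted permutation p of these 7 values of r was 0.363.

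The first principal component of all genes held 36.8% of the variance between arrays. NCOA2 correlated with it at r = -0.968, MED1 at -0.904 and CARM1 at 0.817 over the 12 arrays, while ESR1 was at 0.33 and PGR at -0.17. Of all genes, 19.7% were at 0.8 or beyond in either direction. The component was above 0 on 3 of 3 control ERα(+) arrays and below 0 on 3 of 3 shMOF ERα(+) and 3 of 3 control ERα(-) arrays. In shMOF ERα(-) it was 22.3 and 9.68 on replicates 1 and 3 and -18.0 on replicate 2, the array on which MED1, NCOA2 and CARM1 stood apart from their group. Across 6260 genes at or above the upper end of the dim range, a gene's correlation with the component was itself related to the length of its gene (r = -0.36) and, over the 5135 with a promoter window, to that window's content of G and C (r = 0.20), where genes are not independent replicates. NCOA2 spans 347 kb, CARM1 51.5 kb and MED1 47.0 kb.

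With the component as a covariate the differences of NCOA2 shrank to between -0.10 and 0.08 in the 4 comparisons of 2 groups, with 95% intervals from -0.31 to 0.30 at the widest ends, and its interaction to 0.06 (-0.30 to 0.42). Those of CARM1 became -0.01 for shMOF in ERα(+) (-0.39 to 0.37) and 0.19 for ERα in control arrays (-0.15 to 0.53), and those of MED1 0.07 (-0.17 to 0.32) and -0.21 (-0.43 to 0.009). MED1 in ERα(-) kept an interval below 0 for shMOF minus control, at -0.21 (-0.40 to -0.03, limma adjusted p = 0.802). ESR1 moved little, to 0.22 for ERα in control arrays and -0.24 for shMOF in ERα(+). The component follows the labels in part, so such a fit also takes out part of the comparisons, and a label effect and an array effect along it cannot be told apart.

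**Figure D3:**
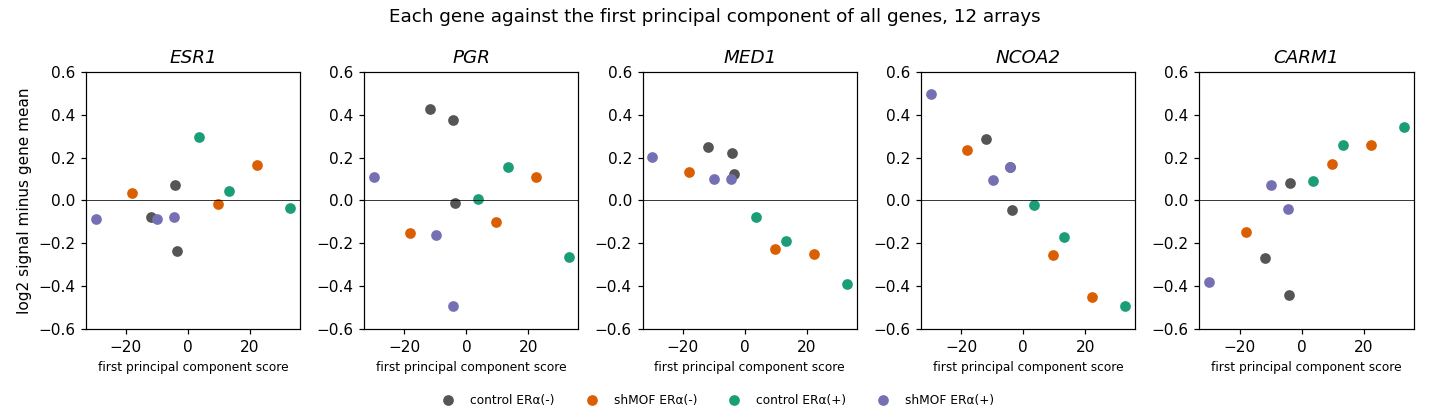
Log2 signal minus the gene's mean over 12 arrays (vertical axis) against the score of the first principal component (horizontal axis, arbitrary units), 1 point per array and colours for the 4 groups. NCOA2 (r = -0.968) and MED1 (r = -0.904) slope down and CARM1 (r = 0.817) slopes up along the component, and ESR1 (r = 0.33) and PGR (r = -0.17) scatter.

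**Figure D4:**
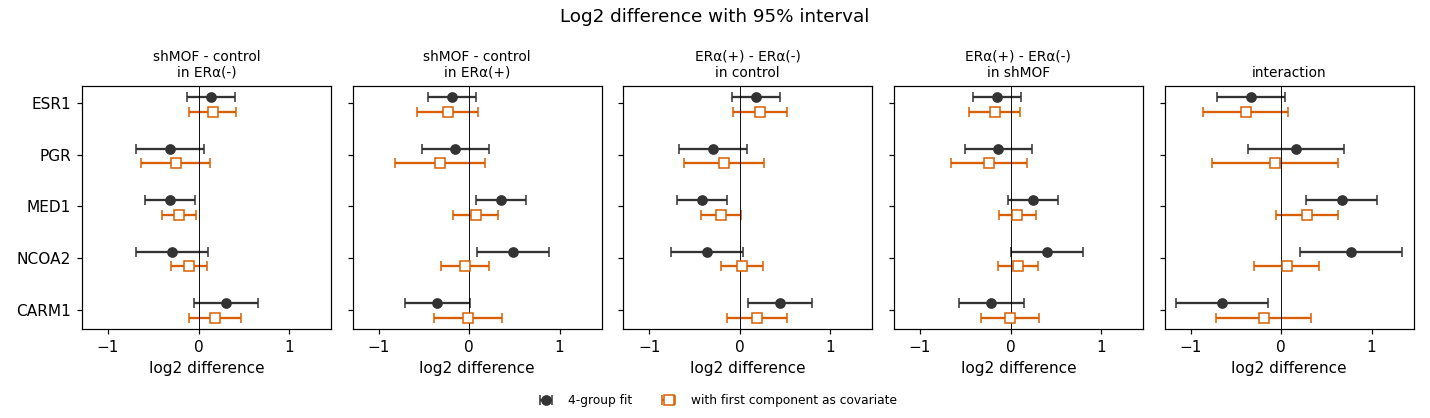
Log2 difference (horizontal axis) and its 95% interval for the 5 genes in the 5 comparisons, in the fit of 4 group means (filled circles) and in that with the component added (open squares). The interactions of MED1 at 0.67, NCOA2 at 0.77 and CARM1 at -0.66 move to 0.29, 0.06 and -0.19 with the covariate, and that of ESR1 from -0.33 to -0.39.

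Among 6259 other genes at or above the upper end of the dim range, those most like NCOA2 over the 12 arrays were SBF2 (r = 0.990), CHD9 (0.987) and CFAP44 (0.986). Most like MED1 were RIMOC1 (0.966), BLOC1S6 (0.962) and TET2 (0.961), and most like CARM1 were SPOUT1 (0.972), the mitotic kinase PLK1 (0.972) and NPRL3 (0.967). The co-activators had many such partners, since 1204 genes reached r = 0.8 with NCOA2 and 1097 reached -0.8, 872 and 762 with MED1, and 823 and 482 with CARM1. The receptors had few: 0 genes reached 0.8 with ESR1 or PGR and 2 and 3 reached -0.8. The closest were PARD3 (0.785), IDS (0.784) and SSBP3 (0.781) for ESR1, and ISCA1 (0.768), MT4 (0.716) and MIR661 (0.708) for PGR. These are the highest of 6260 values for each receptor over 12 arrays, both receptors read in the dim range, and the values were not tested.

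Of 31 steroid and related receptors listed, ESR1 and PGR among them, 11 were measured, and 0 of the 11 had an unadjusted p below 0.05 in any of the 5 comparisons, in which between 4.78% and 18.7% of all genes did. ESR2, the gene of oestrogen receptor beta, was in the dim range like ESR1, at 4.27 (4.06 to 4.57), and so were ESRRG at 3.47 and the membrane oestrogen receptor GPER1 at 5.22. ESRRA, an orphan receptor that binds related elements, was at 6.26 and above the dim range of the same array on 8 of 12 arrays. It followed the component at r = 0.901. PPARG, a fatty acid receptor, was at 7.54 and PPARD at 7.91. The median log2 difference of the 11 was between -0.13 and 0.02 over the 5 comparisons, against -0.04 to -0.002 for all genes.

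Of 29 listed p160 co-activators and partners 20 were measured. For shMOF in ERα(+) 5 were higher and 1 lower at an unadjusted p below 0.05, beside 10.2% and 8.51% of all genes, of which 0 passed after adjustment, with a median of 0.06 against -0.04 for all genes. Beside NCOA2 they were NCOA1 (0.40 ± 0.18, SE), another p160 co-activator, the histone acetyltransferase KAT2B (0.35 ± 0.16), TRIM24 (0.56 ± 0.26), the H3K4 methyltransferase KMT2C (0.57 ± 0.22) and, lower, SRA1 (-0.36 ± 0.16). For ERα in control arrays the numbers were 1 higher and 1 lower, beside 6.34% and 6.38% of all genes, KAT2A at 0.39 ± 0.16 and NCOA7 at -0.95 ± 0.30. NCOA7 was also lower for shMOF in ERα(-), at -0.82 ± 0.30, the 1 gene of the list there, beside 4.78% of all genes. Both differences of NCOA7 were taken against the same group, control ERα(-), whose mean was 7.32 ± 0.70 (SD, n = 3). Without control ERα(+) replicate 3 the count of 6 for shMOF in ERα(+) was 0, and with the component as a covariate it was 0 too. In the interaction 6 were higher and 1 lower, beside 9.35% and 8.69% of all genes, and 0 passed after adjustment. That count of 7 was 3 at the lowest, without shMOF ERα(-) replicate 1, and 0 with the component as a covariate. NCOA1, TRIM24 and KMT2C correlated with the component at -0.948, -0.943 and -0.921. EP300 and CREBBP, the acetyltransferases recruited by p160 proteins, were bright at 10.2 and 9.77.

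Mediator subunits had values on both sides of 0, and 0 passed after adjustment in any of the 5 comparisons. Of 31 listed 29 were measured, and for shMOF in ERα(+) 4 were higher and 7 lower at an unadjusted p below 0.05, beside 10.2% and 8.51% of all genes, with a median of -0.14 against -0.04 for all genes. MED18 (-0.52 ± 0.16, SE), MED24 (-0.44 ± 0.14), MED19 (-0.35 ± 0.12) and MED16 (-0.41 ± 0.14) had the smallest p there. Of these, MED18 and MED19 were in the dim range, with group means of 5.54 to 6.06 and 5.38 to 5.73. For ERα in control arrays 4 were higher and 3 lower, beside 6.34% and 6.38% of all genes, led by MED11 (0.71 ± 0.19), MED1, MED12 (0.42 ± 0.14) and CDK19 (-0.54 ± 0.20), the last 2 of the kinase module of Mediator. For the interaction 4 were higher and 9 lower, beside 9.35% and 8.69% of all genes, led by MED1, MED11 (-0.91 ± 0.27), CDK19 (0.86 ± 0.28) and MED13 (0.83 ± 0.27). For shMOF in ERα(-) MED11 was at 0.46 ± 0.19, opposite to MED1, and for ERα in shMOF arrays MED22 was at -0.30 ± 0.13. Along the component 9 of the 29 were at r of 0.8 or more, among them MED26 (0.950) and MED16 (0.940), and 7 at -0.8 or less, among them MED13 and MED23 (both -0.950), against 9.16% and 10.6% of all genes. The 11 for shMOF in ERα(+) became 3 without shMOF ERα(+) replicate 2, where the count over all genes fell from 2787 to 1048. The 7 for ERα in control arrays became 2 without control ERα(+) replicate 3, where that over all genes fell from 1894 to 1116. With the component as a covariate the 11 and 7 became 0 and 1, beside 3.95% and 7.48% of all genes. Without shMOF ERα(-) replicate 2 the counts for shMOF in ERα(-) and ERα in shMOF arrays went from 2 and 1 to 8 and 10. Those over all genes went from 711 and 793 to 1671 and 2587. Without shMOF ERα(-) replicate 1 the 13 of the interaction became 6.

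All 9 listed arginine methyltransferases were measured. For ERα in control arrays CARM1, PRMT7 (0.47 ± 0.17, SE) and PRMT2 (0.26 ± 0.11) were higher and PRMT9 (-0.44 ± 0.18) lower at an unadjusted p below 0.05, so 4 of 9 beside 12.7% of all genes and 0 after adjustment, with a median of 0.24 against -0.002 for all genes. For shMOF in ERα(+) PRMT9 (0.54 ± 0.18) and PRMT3 (0.39 ± 0.15) were higher and PRMT1 (-0.27 ± 0.13), the main methyltransferase of histone H4, lower, so 3 of 9 beside 18.7% of all genes. Without control ERα(+) replicate 3 both counts, 4 and 3, became 0, as they did with the component as a covariate. In the interaction 1 was higher and 3 lower, beside 9.35% and 8.69% of all genes, and 0 passed after adjustment. That count of 4 was 3 at the lowest when single arrays were left out, and 0 with the component as a covariate. PRMT1 was at 6.11 and above the dim range of the same array on 6 of 12 arrays. It correlated with the component at 0.910 and PRMT9 at -0.897.

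Among co-repressors, which hold receptors silent, 13 of 18 were measured. LCOR, which binds hormone-bound receptors, was higher for shMOF in ERα(+) (0.60 ± 0.21, SE) and lower for ERα in control arrays (-0.56 ± 0.21) at an unadjusted p below 0.05, and GPS2, a subunit of the NCOR complex, ran against it (-0.36 ± 0.14 and 0.30 ± 0.14), so 2 of 13 beside 18.7% and 12.7% of all genes. LCOR followed the component at -0.977 and GPS2 at 0.944. Both counts of 2 fell to 0 when 1 array was left out, control ERα(+) replicate 3 for the former and control ERα(-) replicate 3 for the latter. Of the receptor chaperones 5 of 12 were measured, and CDC37, a co-chaperone of HSP90, was the 1 with an unadjusted p below 0.05, in the interaction (-0.52 ± 0.23), beside 18% of all genes. Of 15 pioneer and partner factors 13 were measured: at an unadjusted p below 0.05, FOXA2, known from the glands of the endometrium, had a difference of 0.43 ± 0.16 for ERα in control arrays and -0.39 ± 0.16 for shMOF in ERα(+), and SOX17 at 0.48 ± 0.20 for the former, so 2 and 1 of 13 beside 12.7% and 18.7% of all genes. FOXA1, which opens chromatin for ERα, was at 5.97 and above the dim range of the same array on 3 of 12 arrays.

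Of 20 listed receptor target genes, PGR among them, 18 were measured. For ERα in control arrays, the comparison named for the receptor, 1 was higher (TSKU, 0.71 ± 0.21, SE) and 0 lower at an unadjusted p below 0.05, beside 6.34% and 6.38% of all genes, with 9 of 18 above 0 and a median of 0.01. For shMOF in ERα(+) 3 were lower, IGFBP4 (-0.37 ± 0.13), TFF1 (-0.39 ± 0.17) and CXCL12 (-0.28 ± 0.12), so 3 of 18 beside 18.7% of all genes, and 0 without shMOF ERα(+) replicate 2. All 3 were in the dim range, with mean signals of 5.43, 4.79 and 4.33. GREB1, a classical oestrogen target, was in the dim range at 5.09. For shMOF in ERα(-) it was lower (-0.31 ± 0.13) and TSKU higher (0.52 ± 0.21), so 2 of 18 beside 4.78% of all genes. CXCL12 was also lower for ERα in shMOF arrays (-0.33 ± 0.12), so 1 of 18 beside 5.33%. In the interaction GREB1 was at 0.44 ± 0.19 and TSKU at -0.91 ± 0.30, so 2 of 18 beside 18%. TFF1, TSKU and CTSD correlated with the component at 0.784, 0.831 and 0.884. The other counts of 1 or 2 given for these lists and for the markers were each 0 without 1 of the arrays, with the following exceptions. For ERα in control arrays the lowest was 1 each for the p160 co-activators and the target genes. In the interaction it was also 1 each for the target genes and the immune markers.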

How the data were processed

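Per the submitters' processing notes, RMA in Expression Console (version 1.4.1, Affymetrix) was used, and the values the authors deposited are log2 signals. The build behind the probe sets is not given in the sources used here. Of 53617 probe sets, 16098 had 1 gene symbol in the platform annotation, 0 had several and 37519 were unnamed here. The brightest probe set stood for each gene, and 0 genes were filtered out. Group means were fitted with limma 3.58.1 in R 4.3.3 over 12 arrays (8 residual and 5.60 prior degrees of freedom, two-sided, Benjamini-Hochberg over 14884 genes, called below 0.05). With 3 arrays against 3, 0.1 is the smallest p an exact permutation test allows. The number of arrays limits the precision: the 95% interval reached a median of 0.33 to either side, and 0.46 in the interaction. The pipeline was tested on simulated data. The genes and gene lists were chosen with earlier results of these data known. Named genes were the 5 in every array, up to 4 of each list per comparison with the smallest unadjusted p if below 0.05, and the 3 most correlated with each. NCOA1, SRA1 and the levels and component correlations of other listed genes were named outside that rule, after their values were seen. Olfactory receptor genes were to set the dim range, but 1 was among the named probe sets used here, and KRTAP genes took their place. Replicate numbers recur across groups, and same-numbered arrays' deviations correlated between -0.18 and 0.45. Arrays of different number were not compared in this way, so a pairing by number is not excluded. The main fit did not pair arrays. Correlations were tested with 100000 permutations, two-sided.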

Additional observations from a re-analysis of the deposited data

How the results depend on the processing

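Over 565 refits of the 25 differences of the 5 genes, 5 changed sign and 9 were called. Adding the first principal component turned NCOA2 to -0.0442 for shMOF in ERα(+) and to 0.0220 between control arrays, and the interaction of PGR to -0.0684. PGR ran from -0.30 to 0.002 for shMOF in ERα(+) and from -0.28 to 0.0185 for ERα in shMOF arrays when single arrays were left out. Array quality weights called MED1 at -0.42 and 0.31 for shMOF in ERα(-) and ERα(+), 0.34 for ERα in shMOF arrays and 0.73 in the interaction, NCOA2 at 0.42 in shMOF arrays and 0.76 in the interaction, and CARM1 at -0.61 in the interaction. In the interaction MED1 ran from 0.59 to 0.79 and NCOA2 from 0.62 to 0.97 when single arrays were left out. In the 5 comparisons, in the order of the report, the weights called 645, 1629, 217, 1918 and 3258 genes and gave 3813, 4762, 3687, 4912 and 5734 an unadjusted p below 0.05, where the fit of 4 means called 0 throughout and gave 711, 2787, 1894, 793 and 2685. Leaving out single arrays called 0 to 5, 0 to 30, 0 to 4, 0 to 11 and 0 to 570 genes, with 434 to 1671, 1048 to 3473, 1116 to 2463, 436 to 2587 and 1494 to 4036 at an unadjusted p below 0.05. The component as a covariate gave such a p to 588 genes in the shMOF comparison of ERα(+), to 1114 and 515 in the ERα comparisons of control and shMOF arrays, and to 758 in the interaction, all fewer, and to more, 919, in the shMOF comparison of ERα(-). Only the 2 groups compared called 9 genes for ERα in control arrays, and in the interaction the replicate block called 2 and the code letter of the samples as a random block 5. The replicate block called 0 of the 5 genes. The filter on dim genes left out PGR. With LCE and PRAMEF genes, chosen after seeing the data, as the dim set, the distance to its 95th percentile moved to -2.19 for ESR1, -3.34 for PGR, 2.58 for MED1, 0.85 for NCOA2 and 2.43 for CARM1, from -1.79, -2.95, 2.97, 1.24 and 2.82. The cause of these changes was not tested.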
